A study of Mus musculus with 2 samples.

Results

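The mitosis and spindle genes are 45 mouse genes whose products carry a cell through division: the kinase that starts mitosis and its partners, the motors and attachment sites that move chromosomes, the checkpoint that holds the cell until every chromosome is attached, and the complexes that compact the chromosomes. They were measured in the thymus of B6NCrl mice on the day of birth (age 0 days). The 45 genes were taken as a list of symbols and were matched by Ensembl gene identifier among the 43346 genes of each deposited table. The 2 libraries of total RNA came from both thymus lobes of 2 pups born to 1 pregnant female. The pups' sex was not collected, and no treatment, transgene or mutation is named. The libraries form 1 group of 2 biological replicates, so no contrast between conditions exists. Every difference below compares 2 libraries and has no replicate check.

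Cyclin-dependent kinase 1 bound to cyclin B drives a cell into mitosis, and the anaphase-promoting complex ends mitosis by marking cyclin B and securin for destruction. In between, the Aurora and Polo kinases build the spindle, kinetochores tie chromosomes to microtubules, and kinesins move and sort them. In the thymus, immature T cells divide in bursts after receptor beta-chain rearrangement, and transcripts of this programme accumulate mainly in dividing cells. Whole-organ RNA mixes all cells, so fewer dividing cells and less RNA per dividing cell cannot be told apart in any value below.

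Promoters of genes that peak late in the cell cycle are known for a pair of short elements, the cell cycle genes homology region (CHR) and the CCAAT box. The RefSeq table of mouse promoters (GRCm38.p6, 250 bases before to 50 after each start) held 40 entries for 38 of the 45 genes. Incenp, Tpx2, Kif20a, Smc4, Aurkb, Ccna2 and Cdc25c had none. The CHR core was searched as TTTGAA or TTCGAA and the box as CCAAT, each on both strands. A CHR core stood in 80% of the 40 promoters (32), against 19.2% of all 32851 promoters of the table and 17.6% of the 21263 of protein-coding genes. CCAAT stood in 72.5% (29), against 37.4% of all promoters and 38.2% of those of protein-coding genes. Both stood in 67.5% (27), against 7.52% of all. Median GC content was 59.0% in the 40 windows, 52.7% in all and 56.3% in those of protein-coding genes. Ect2 and Prc1 had 2 entries each with overlapping windows. Counted by gene, 30 of 38 had a CHR core, 27 had CCAAT and 25 had both.

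The following stretches of 100 bases run 5′ to 3′ up to the RefSeq start site, or end before it where the GENCODE gene begins earlier, so that at most 30 bases lie in that gene (the last base is 2 before the start in Ube2c, 55 in Ccnb1 and 86 in Ncapd2). They show the 6 most abundant members with a CHR core in such a stretch, and then both B-type cyclins, the partners of Cdk1. Capitals mark CHR cores (TTTGAA, or TTCAAA when read on the opposite strand) and CCAAT boxes (ATTGG on the opposite strand).
Ube2c, chr2:164769828-164769927, plus strand: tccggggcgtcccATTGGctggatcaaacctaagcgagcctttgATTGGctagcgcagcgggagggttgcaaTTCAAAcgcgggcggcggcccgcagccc
Cdk1, chr10:69352913-69353012, minus strand: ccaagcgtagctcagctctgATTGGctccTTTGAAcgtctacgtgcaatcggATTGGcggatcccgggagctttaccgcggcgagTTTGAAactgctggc
Top2a, chr11:99024190-99024289, minus strand: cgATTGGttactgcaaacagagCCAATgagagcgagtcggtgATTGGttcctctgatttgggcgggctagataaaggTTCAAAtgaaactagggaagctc
Cdc20, chr4:118437344-118437443, minus strand: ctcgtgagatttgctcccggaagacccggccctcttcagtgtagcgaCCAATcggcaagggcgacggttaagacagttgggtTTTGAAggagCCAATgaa
Ncapd2, chr6:125191672-125191771, minus strand: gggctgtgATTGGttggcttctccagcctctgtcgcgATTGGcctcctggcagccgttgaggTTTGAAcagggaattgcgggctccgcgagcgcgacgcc
Prc1, chr7:80294376-80294475, plus strand: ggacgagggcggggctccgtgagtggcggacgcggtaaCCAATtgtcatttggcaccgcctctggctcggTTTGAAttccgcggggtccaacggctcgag
Ccnb1, chr13:100786541-100786640, minus strand: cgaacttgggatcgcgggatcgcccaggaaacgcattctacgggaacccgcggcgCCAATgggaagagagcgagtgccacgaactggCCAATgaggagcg
Ccnb2, chr9:70421555-70421654, minus strand: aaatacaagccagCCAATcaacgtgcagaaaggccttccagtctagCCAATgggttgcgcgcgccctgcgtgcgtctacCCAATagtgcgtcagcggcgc

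The matches were not spread evenly over the window. Positions below count from the start base as 1, with negative positions before it. Of 46 CHR matches in the 40 promoters, 31 began within 50 bases of the start on either side, and 21 of the 46 lay after it. Matches in the overlapping windows of Ect2 and Prc1 are counted in each window. The totals of CHR and CCAAT matches are therefore not counts of distinct sites. A CHR core began within 50 bases of the start in 72.5% of the 40 promoters, against 5.31% of all promoters. The median CHR position was -16. Of 64 CCAAT matches, 62 lay before the start, and their median position was -69.5. In Cdk1 the CHR cores began at -71 and -15, and 3 CCAAT boxes began at -208, -80 and -48. The Ccnb2 promoter held CCAAT at -87, -54 and -21, with CHR cores at -167 and 5, outside the printed stretch. Ccnb1 held CCAAT at -99 and -67 and no CHR match in the window. Neither element matched in the windows of Birc5, Mad2l1, Ncaph, Nuf2, Plk4 and Pttg1, which says only that these letters are not there. In 1 promoter, that of Cdca8, a CHR core and a CCAAT box overlapped. A match is a description of sequence, not a bound site.

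**Figure D1:**
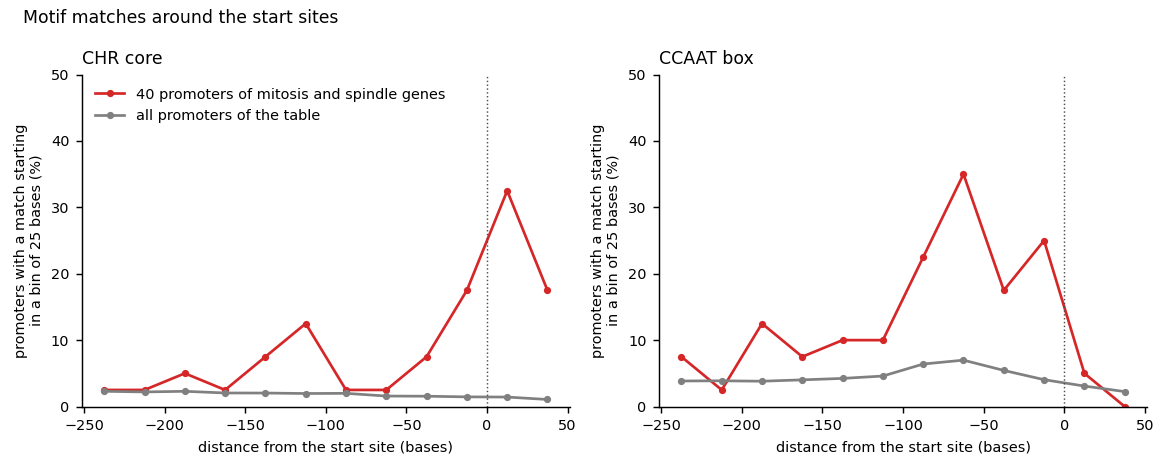
Share of promoters (vertical axis, percent) with a match that begins in each bin of 25 bases, by distance from the RefSeq start site (horizontal axis, bases), for the 40 promoters of mitosis and spindle genes (red) and all 32851 promoters (grey). Matches of the CHR core (left) are most frequent around the start site, while those of CCAAT (right) are most frequent before it.

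All 45 genes were expressed, taking at least 1 TPM in both libraries as the limit, against 32.2% of the 43346 genes. TPM is a relative transcript abundance per transcript length, so it allows genes to be set side by side. All levels below are TPM, with replicate 1 before replicate 2 where 2 values are given, and ± is the SD over both libraries (n = 2). The median member stood at 71.5 TPM (72.3 and 66.9 in the single libraries), against 15.0 for the 13957 expressed genes. Levels spanned 32.1-fold, from the contractile-ring protein Anln at 12.03 ± 0.339 to the survivin gene Birc5 at 387 ± 11.1. With counts over each gene's longest coding transcript the span was 19.9-fold. That scale divides all counts of a gene by the length of that transcript, however little of the TPM the transcript holds. 17 members exceeded 100 TPM, a level passed by 12.2% of expressed genes, and 13 stood in the top 10% of expressed genes. Together the members held 0.518% and 0.479% of all TPM.

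Libraries held 39046411 and 41576822 expected counts, and member counts ran from 1183 (Cdc25c) to 27478 (Top2a). The authors' estimate of uncertainty from reads that fit several genes was 0 for 31 members and at most 0.485% of the count for the other 14. The biological coefficient of variation of the 2 libraries was 11.7%. Thymus identity was clear in the markers: all 6 thymocyte markers were expressed, led by Cd8b1 at 1041 TPM, and so were all 5 of thymic epithelium. Of 6 macrophage and granulocyte markers 1 (Elane) was below 1 TPM in both libraries. All 5 mesenchyme and endothelium markers were expressed, at 1.46 to 154 TPM. Which cell types contributed the mitotic transcripts was not tested.

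**Figure D2:**
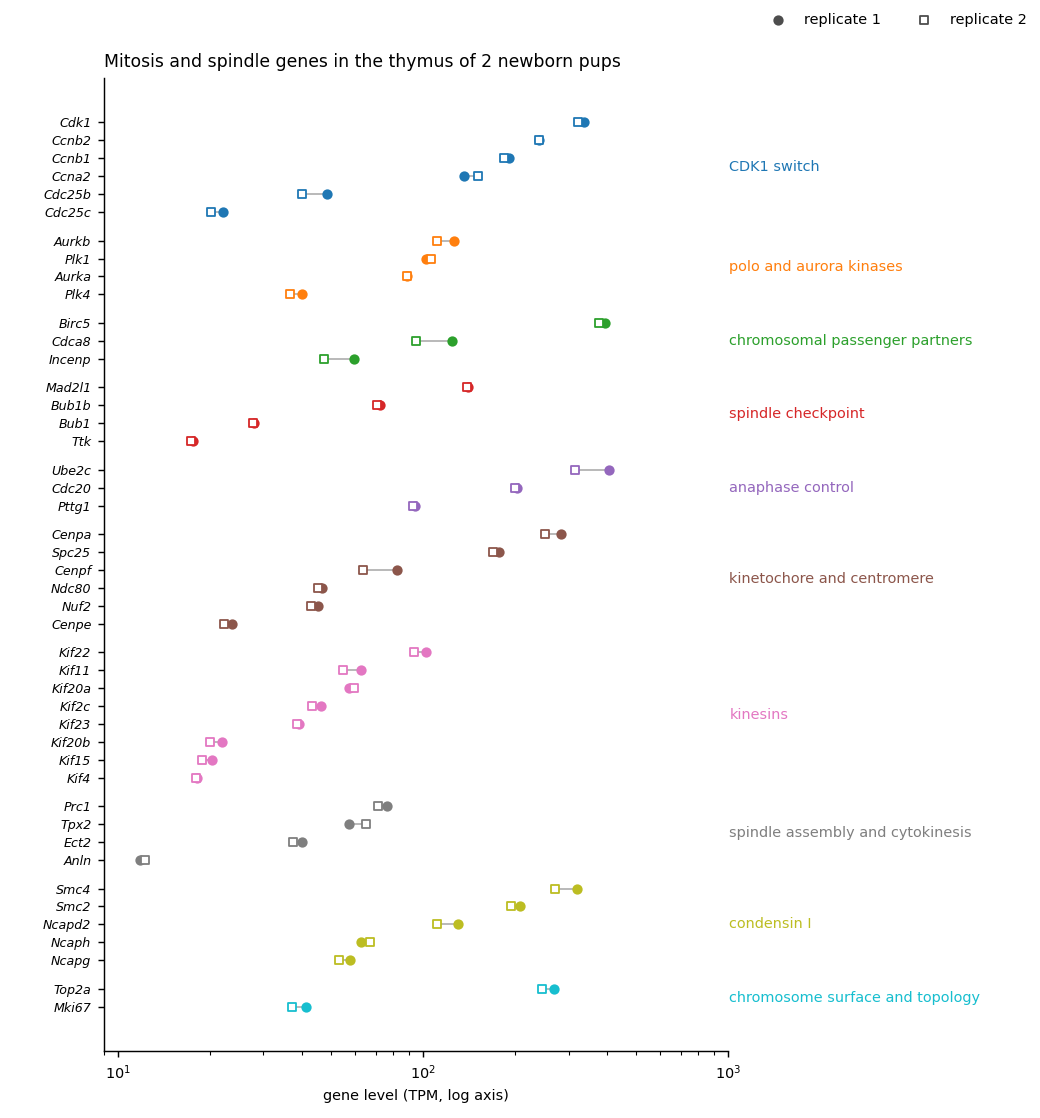
Level of each of the 45 genes (horizontal log axis, TPM) in replicate 1 (filled circles) and replicate 2 (open squares), grouped by role. The lines join the 2 libraries of a gene. Members range from Anln at 12.03 TPM to Birc5 at 387 TPM, a wider range than any gap between the 2 libraries.

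The CDK1 switch was among the most abundant groups, with a median of 166 TPM over its 6 genes. Cdk1 itself, the kinase that triggers mitosis (chr10:69335146-69352938), stood at 337 and 323 TPM. Ccnb2 and Ccnb1, its B-type cyclin partners, stood at 240.4 and 239.2 and at 192 and 185 TPM. Cdk1 exceeded Ccnb1 1.76-fold and 1.75-fold on this scale. That order depends on the scale. In protein-coding transcripts Cdk1 stood at 200.1 and 202 TPM against 184 and 179 for Ccnb1. With all counts over the longest coding transcript Cdk1 was the lower, at 104 against 183. For Cdk1 that transcript, of 2886 bases, held only 2.76% of TPM, while the coding transcript of 1253 bases held 58.1%. Ccnb2 exceeded Ccnb1 1.3-fold in both pups, and by 1.32-fold and 1.31-fold of the means on those 2 other scales. Ccna2, the cyclin of S phase and early mitosis, stood at 137 and 151 TPM. Its locus overlaps the antisense gene Exosc9 (52.3 TPM), and whether counting used the strand is not stated. The phosphatases that remove the inhibitory phosphates from Cdk1 were lower, with Cdc25b at 48.3 and 40.1 and Cdc25c at 22.1 and 20.2 TPM.

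Among the kinases that build the spindle, Aurkb of the chromosomal passenger complex reached 126.5 and 111 TPM and Plk1, the main Polo kinase, 102 and 107. In protein-coding transcripts Aurkb stood at 117 and 103 TPM, above Plk1 in replicate 1 and below it in replicate 2. Aurka, the spindle-pole Aurora, followed at 88.7 and 88.9. Plk4, which starts centriole duplication, stood at 40.25 and 36.6 TPM. The other passenger subunits covered a wide span. Birc5 (chr11:117849251-117855743) stood at 395 and 379 TPM, the highest mean of all 45 members, although Ube2c was higher in replicate 1. The borealin gene Cdca8 stood at 125 and 95.01, and the scaffold Incenp at 59.3 and 47.5, so Birc5 exceeded Incenp 6.65-fold and 7.98-fold although their proteins share a complex. In protein-coding transcripts the ratio was also 6.65 and 7.98. With counts over the longest coding transcript it was 1.82 and 2.15, but that transcript of Birc5, of 3334 bases, held only 1.27% of its TPM.

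The 4 spindle checkpoint genes differed from each other far more than the pups did. Mad2l1, the inhibitor that binds Cdc20, stood at 141 and 139.5 TPM. Bub1b (BubR1) stood at 72.3 and 70.8, Bub1 at 28.0 and 27.6, and the kinase Ttk (Mps1) at 17.6 and 17.3 TPM. The genes that act in anaphase control had the highest median of any role, 202 TPM over 3 genes. Ube2c, the E2 enzyme of the anaphase-promoting complex (chr2:164769898-164778822), stood at 409 and 314 TPM. Cdc20, the activator that the checkpoint restrains, stood at 203 and 201, and securin (Pttg1), the inhibitor of separase, at 93.9 and 92.7. In protein-coding transcripts Ube2c exceeded Cdc20 2.08-fold and 1.66-fold. With counts over the longest coding transcript Cdc20 was above Ube2c, at 195 against 150.1, and Pttg1 stood at 37.2. The longest coding transcripts of Ube2c and Pttg1 held only 0.05% and 2.07% of their TPM. Cdc20 overlaps the antisense gene Elovl1 (40.8 TPM). Separase itself (Espl1), named here after its value was seen, stood at only 8.79 and 9.47 TPM.

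At the kinetochore, Cenpa, the centromeric histone variant that marks its site, was highest at 284 and 250.3 TPM. In protein-coding transcripts Spc25 was the highest of this group instead, at 164 TPM against 116 for Cenpa. Spc25, Ndc80 and Nuf2 encode subunits of the NDC80 complex that grips microtubules. Ndc80 and Nuf2, which pair in that complex, stood at 46.6 and 45.3 and at 45.4 and 42.8 TPM, a ratio of 1.03 and 1.06. Spc25 exceeded Ndc80 3.81-fold and 3.74-fold, at 178 and 169.5 TPM. The large corona protein Cenpf stood at 82.2 and 63.6, and the kinetochore kinesin Cenpe at 23.7 and 22.3 TPM. Cenpf stood at 42.6 in protein-coding transcripts and at 19.5 with counts over the longest coding transcript, where it was below Cenpe (23.0). That Cenpf transcript, of 11130 bases, held 12.3% of its TPM. The 8 genes of the kinesin group ranged from 18.1 to 97.85 TPM. Kif22, a motor that pushes chromosome arms, was highest at 102 and 93.4, and Kif11, which slides antiparallel microtubules apart, stood at 62.8 and 54.85. Kif15, a motor that can share that task, stood at 20.4 and 18.9. Kif20a, Kif23 and Kif4 act at the midzone: Kif20a stood at 57.4 and 59.2, Kif23 at 39.2 and 38.6, and Kif4 at 18.1 in both. Kif20a and Kif4 overlap the antisense genes Cdc23 (60.7 TPM) and Pdzd11 (73.1 TPM). Kif2c, which depolymerises microtubules, stood at 46.2 and 43.2, and Kif20b, a further motor of cytokinesis, at 21.9 and 20.0 TPM.

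Of the 4 genes of spindle assembly and cytokinesis, the microtubule bundler Prc1 stood at 76.05 and 71.2 TPM and Tpx2, the activator of Aurora A, at 57.2 and 65.3. Ect2, which activates the contractile ring, followed at 40.2 and 37.4, and Anln closed the list at 11.8 and 12.3. Condensin I, which compacts chromosomes, had a median of 120 TPM over its 5 subunits. Its ATPases Smc4 and Smc2 stood at 321 and 271 and at 208 and 195. Of the regulatory subunits, Ncapd2 stood at 130.1 and 111, Ncaph at 62.9 and 66.9, and Ncapg at 57.7 and 53.0. Smc2 was above these 3 on total TPM only: in protein-coding transcripts it stood at 54.5, below Ncaph (63.0) and Ncapd2 (62.1), and the median subunit at 62.1. Top2a, the topoisomerase that untangles sister chromatids, stood at 269 and 246, and at 164 and 157 in protein-coding transcripts. Mki67 (Ki-67), the chromosome-surface protein used as a marker of proliferation, stood at 41.4 and 37.3 TPM. Its counts of 12174 and 11829 were among the higher ones, but they are divided by an effective length of 9976 bases, the longest of any member.

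Longer genes had lower levels. Over the 45 members, Spearman's rho of TPM against effective length (the bases at which a fragment can begin) was -0.72, against -0.33 over 12309 expressed protein-coding genes. With counts over the longest coding transcript, against that length, it was -0.53 for the members. These are descriptions across genes, which share the libraries and a division by that same length. The division also makes TPM depend on which annotated transcripts the authors' estimate used. Protein-coding transcripts held 82.7% and 84.5% of the members' summed TPM, and transcripts with a retained intron 6.19% and 5.31%. The median share in protein-coding transcripts was 96.8% for members, lower than the 98.6% of the 12309 expressed protein-coding genes. Among genes with at least 2 transcripts it was 95.4% and 93.3%. Protein-coding transcripts held over 90% of TPM in 35 of the 45 members, against 68.2% of the 12309 genes. They held under 50% in 2 members (4.44%), against 8.62% of those genes. The first of these 2 is Smc2, with 26.2% and 28.0% in coding transcripts and 55.2% in a processed transcript of 643 bases. The second is Cenpa, with 43.8% and 43.0% in coding transcripts.

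Several other members that rank high drew much of their level from short models. In Cdk1, retained-intron transcripts of 378 and 475 bases held 19.4% and 19.0% of TPM. In Ncapd2, retained-intron transcripts held 47.6%. In Smc4 a coding transcript of 1163 bases held 55.2%, against 7.44% for the one of 4316 bases. Counting protein-coding transcripts only, Cdk1 stood at 201 ± 1.32 TPM, Smc4 at 189, Cenpa at 116, Ncapd2 at 62.1 and Smc2 at 54.5 TPM. On that scale Smc2 fell from rank 9 among the members to rank 26, while Birc5 and Ube2c had the highest means, with Ube2c first in replicate 1. With counts over the longest coding transcript Ccnb2 (239.8) and Cenpa (234) came first, Ube2c (150.1) was at rank 7 and Birc5 (105) at rank 12. For Ube2c and Birc5 that transcript, of 2191 and 3334 bases, held only 0.05% and 1.27% of TPM. Their coding transcripts of 967 and 947 bases held 99.95% and 98.7%, so these 2 lower ranks come from the divisor. The median member stood at 58.8 TPM in protein-coding transcripts and at 58.3 with counts over the longest coding transcript, in place of 71.5. All 32 members with at least 2 annotated transcripts shared their highest transcript between the libraries, against 94.6% of 6065 such genes with at least 10 TPM, and 13 members had 1 transcript only.

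**Figure D3:**
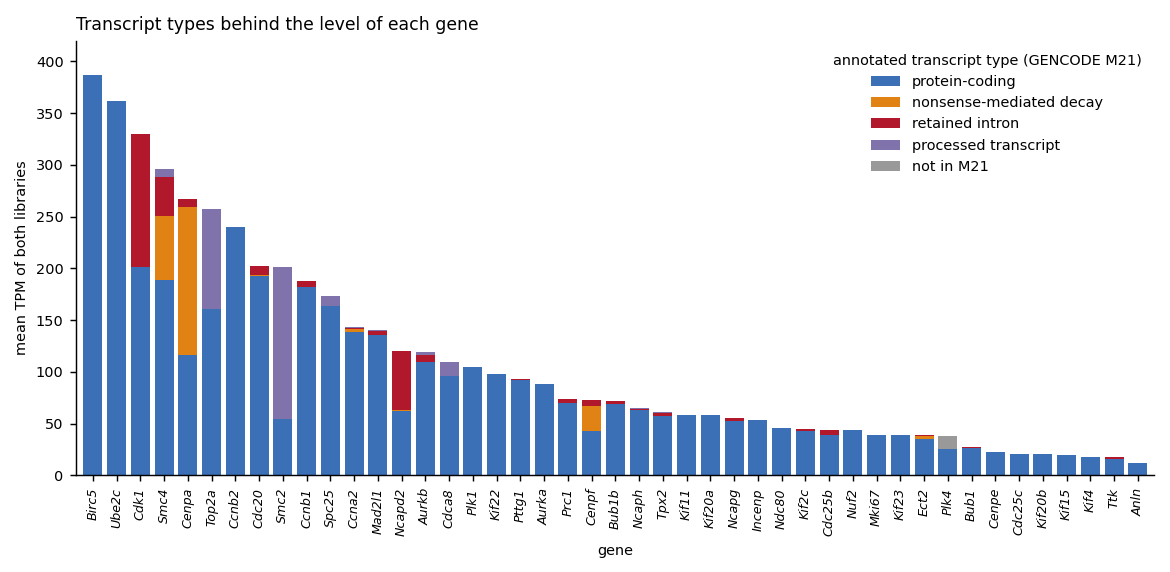
Mean TPM of both libraries (vertical axis) for each of the 45 genes (horizontal axis, in order of level), divided by annotated transcript type. Transcript types other than protein-coding make up much of the bars of Cdk1, Smc4, Cenpa, Top2a, Smc2, Ncapd2, Cenpf and Plk4. They make up far less of the others. In Plk4 this part is transcripts without a match in GENCODE M21, so their type is not known.

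The 2 pups matched closely in these genes. On counts scaled by edgeR's TMM factors, the median log2 ratio of replicate 2 to replicate 1 was -0.03 over the members and 0.02 over all 14155 genes whose mean count reached 50. The median size of the difference was 1.05-fold for members and 1.10-fold for all those genes. Since deep genes vary less, the 6490 genes within the members' range of counts are the closer reference, with a median of 1.07-fold. Of the 45 members 27 were higher in replicate 1, against 46.1% of all 14155 genes, and 18 in replicate 2. The split depends on the scaling: 38 were higher in replicate 1 on deposited TPM, against 56.8% of all, and 0 after scaling to spike-in totals, which moves the median of all tested genes to a log2 ratio of 0.71. No member was higher in replicate 2 by over 25%, against 6.36% of the 14155 genes. 1 member was higher in replicate 1 by over 25%, against 10.1%. None differed by over 1.5-fold in either direction, against 4.75%. Among the 6490 genes of like depth, 5.58% differed by over 25%, with 2.13% higher in replicate 2 and 3.45% in replicate 1. Beside those shares, 0 and 1 of 45 members do not set the members apart from genes of like depth.

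The single gene past 25% was Ube2c, with 10466 and 8687 expected counts and a ratio of 1.26 (95% interval 1.22 to 1.30, counting error only). On deposited TPM 3 members passed 25%, all higher in replicate 1: Cdca8 (1.31-fold), Ube2c (1.30-fold) and Cenpf (1.29-fold). Of all 14155 genes 11.4% passed in that direction on TPM. On scaled counts the next largest differences were in Incenp (1.21-fold), Cdca8 (1.20-fold) and Cenpf (1.19-fold), all higher in replicate 1. Incenp and Cdca8 encode subunits of the chromosomal passenger complex, while its other subunits differed less, Aurkb by 1.10-fold and Birc5 by 1.02-fold in the same direction. In the other direction the largest were the cyclin Ccna2 (1.16-fold), Tpx2 (1.11-fold) and the condensin subunit Ncaph (1.08-fold). The 4 checkpoint genes were each slightly higher in replicate 2, by log2 ratios of 0.04 to 0.07. On deposited TPM those same 4 genes were each slightly lower in replicate 2, so their direction depends on the scale. The counting interval of the ratio excluded 1 for 23 members and held 1 for 22, and it covers neither handling nor the difference between animals. The share over all genes is not given here, so these counts cannot be read as particular to the members.

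**Figure D4:**
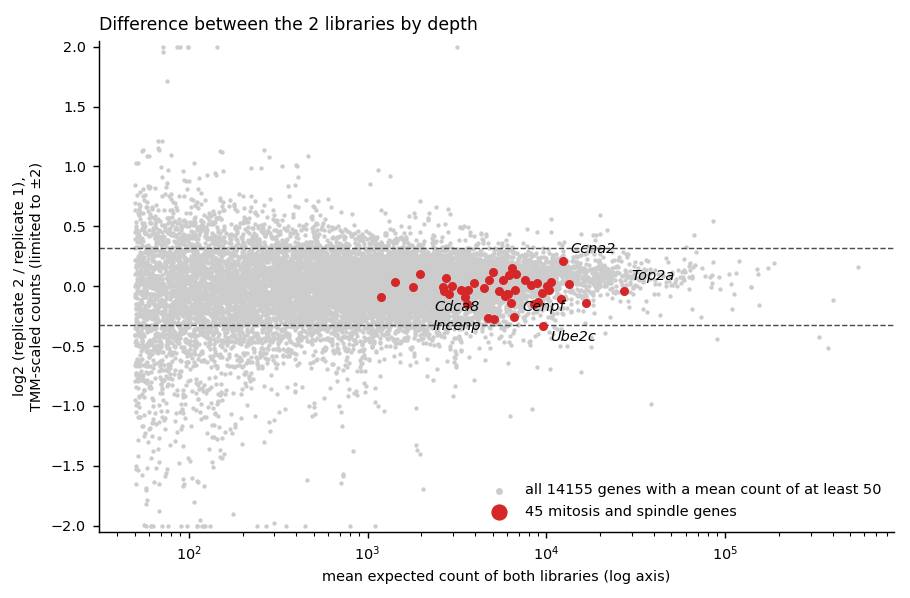
Log2 ratio of replicate 2 to replicate 1 of TMM-scaled counts (vertical axis, limited to ±2) against mean expected count (horizontal log axis) for 14155 genes (grey) and the 45 mitosis and spindle genes (red). Dashed lines mark a difference of 25%, which Ube2c alone among the members crosses.

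The other genes of cell division, taken from lists by function, had list medians between 27.6 and 82.2 TPM. All 17 genes of the anaphase-promoting complex and its partners were expressed (median 82.2 TPM), from Ube2s, the second E2 enzyme, at 354 to Anapc10 at 14.7. All 26 other kinetochore genes were expressed at a median of 27.6 TPM, led by Zwint at 145 and closed by Kntc1 at 4.93. The 24 other spindle and cytokinesis genes had a median of 28.5 TPM, from the Cdk1-binding Cks1b at 393 to the kinesin Kif14 at 4.02. Condensin II and cohesin, listed without the shared Smc2 and Smc4 (8 of 8 expressed), had a median of 55.6. A mixed list of genes that act for or against Cdk1 (9 of 9) had a median of 29.5, led by Arpp19 at 384. On TMM-scaled counts 0 of these 84 genes differed by over 25% between the libraries. On TPM with 0.5 added 2 did, both higher in replicate 1 and named after their values were seen: the kinetochore scaffold Knl1, at 87.15 and 64.5 TPM, and the kinesin Kif2a, at 28.5 and 21.8.

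Regulators of cell cycle transcription, among them factors that act at CHR and CCAAT elements, were all expressed (14 of 14), at a median of 21.1 TPM. Rbbp4, a subunit of the DREAM complex and of several others, led at 415 TPM, and Lin54, the DREAM subunit that contacts CHR elements, was lowest at 7.98. Foxm1 and Mybl2, the activators of late cell cycle genes, stood at 18.5 and 19.5 and at 22.2 and 23.3 TPM. Those 2 were named after their values were seen. On scaled counts E2f4 was the only one of the 14 past 25%, higher in replicate 2 by 1.36-fold.

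Of 11 listed paralogues, germline genes among them, 5 were expressed, led by Top2b at 87.0 TPM and Cdc25a at 22.6. The meiotic Aurkc and the cyclin Ccnb3 had 0 counts in both libraries, where a count of 0 allows up to 3 counts per library. Ccna1, the cyclin A of the germ line, stood at 0.09 and 0.26 TPM, and the meiotic cohesin genes Smc1b and Rec8 and the Polo-like Plk5 were also below 1 TPM. Stag3, another meiotic cohesin gene, was at 1.95 and 2.71. Of 4 processed pseudogenes of members, Kif22-ps and Kif4-ps had 0 counts, Ccnb1-ps stood at 1.72 and 1.45 TPM and Ccnb2-ps at 1.42 and 1.09, against 188 and 239.8 for their parent genes. The reads of Ccnb1 and its pseudogene were divided by the authors' estimate, with an uncertainty of 7.48 and 7.63 counts for the copy.

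The 29 replication genes had a median of 95.3 TPM, led by the sliding clamp Pcna at 392.5 and the reductase subunit Rrm2 at 392. Their median log2 ratio was 0.16, and 26 of 29 were higher in replicate 2 (22 on deposited TPM), beside 18 of 45 mitotic genes (7 on TPM) and 53.9% of all 14155 genes (42.8% on TPM). Past 25% on scaled counts were 2, Mcm5 and Cdc6, both higher in replicate 2 and both named after their values were seen. Of 8 G1 cyclins and kinases 7 were higher in replicate 2 (5 on TPM), and 1, Cdk6 (also named after its value was seen), was lower there past the same limit. In the same direction as the replication genes, Foxn1 of thymic epithelium was higher in replicate 2 by 1.53-fold, as were 4 of the 5 epithelial markers to any degree (3 on TPM; summed level 1712 and 1769 TPM). So were 5 of 6 thymocyte markers (2228 and 2344 TPM) and all 5 of mesenchyme and endothelium (254 and 282 TPM). Of 5 macrophage and granulocyte markers with a mean count of at least 50, 4 were higher in replicate 2, but the granulocyte gene S100a8 was lower there by 1.45-fold and the summed level was 251 and 220.5 TPM. Their part in the difference was not tested.

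**Figure D5:**
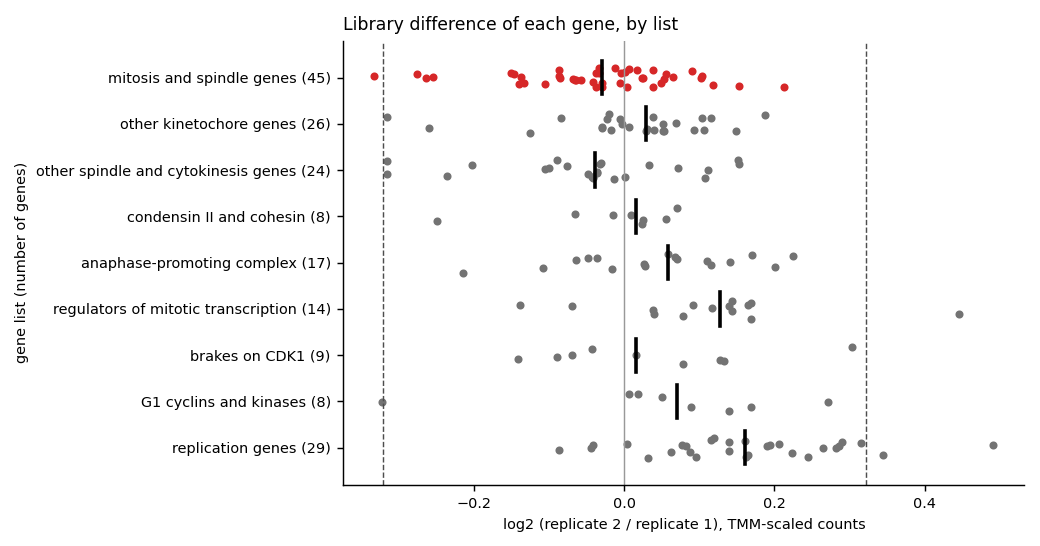
Log2 ratio of replicate 2 to replicate 1 (horizontal axis, TMM-scaled counts) of each gene, by list (vertical axis, with the number of genes). Black bars are medians and dashed lines mark a difference of 25%. The list labelled brakes on CDK1 mixes genes that act for and against Cdk1. The mitosis and spindle genes (red) centre at -0.03 and the replication genes at 0.16.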

How the data were processed

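Total RNA of 2 newborn thymuses was sequenced as 1 library a pup, from 10 ng of RNA with spike-ins, per the labels. The authors deposited expected counts (estimated, not normalized), TPM and FPKM (per length and library) for genes and transcripts, and the percent of a gene's TPM in each transcript. The build is mm10, per the labels, and the annotation M4, per the deposited read-me texts. The aligner, the quantifier and whether strand was used: not given in the sources used here. Of 69691 rows, 96 spike-ins, 26248 number-only rows and 1 other row, with 0.00179% and 0.00107% of counts, were left out. Symbols, transcript types and coordinates came from GENCODE M21 (GRCm38; 42462 genes matched) and promoters from RefSeq.

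Counts were scaled with edgeR 4.0.16 (R 4.3.3), ratios used a prior count of 0.5, and steps were tested on simulated data. Differences were counted past 25% at a mean count of at least 50. DESeq2 1.42.0, spike-in, total-count and TPM scaling were alternatives. Expected counts were rounded for edgeR and DESeq2. Counts of the 2 libraries differed beyond sampling noise (chi-square 23.4 times its degrees of freedom), and intervals cover counting error only. Members and lists were chosen with earlier results of these data known. Any member, pseudogene or paralogue could be named, and from other lists the 3 highest, the lowest, those below 1 TPM and those past 1.5-fold; others are marked. Python 3.11.15 was used. 1 marker list is not reported here.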

Additional observations from a re-analysis of the deposited data

How the results depend on the processing

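All 45 genes stayed expressed at limits of 5 and 10 TPM, at 1 FPKM and in each library alone. The median member level of 71.5 TPM was 66.9 to 72.3 in single libraries, 78.8 without mitochondrial genes and signal recognition particle RNAs and 54.4 as FPKM, and, in 2 settings added after seeing the data, 58.8 with protein-coding transcripts only and 58.3 with counts over the longest coding transcript. The summed level was 0.499% of TPM, 0.479% to 0.518% in single libraries and 0.756% of expected counts. The median log2 ratio of -0.03 reversed to 0.66 under spike-in totals, where all 45 genes were over 25% higher in replicate 2, as were 91.8% of all tested genes; spike-ins had only 659 and 427 counts. It was -0.02 to -0.09 under the 5 other settings. Past 25% was 1 gene, but 3 on TPM, and 0 at 1.5-fold. The share of promoters with a CHR core was 75% from 100 bases before the start and with TTTGAA only. No paired analysis was possible because there is 1 group.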

Other observations

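Several of these promoters held more than 1 CCAAT box. Of the 40 promoters, 19 held at least 2 CCAAT matches, or 47.5%, against 11.7% of all promoters. Both overlapping entries of Ect2 are among the 19. In 7 of those 19, neighbouring matches began 31 to 34 bases apart: 32 in Aurka, Ccnb1, Cdk1 and Spc25, 33 for both gaps of Ccnb2, 34 in Cdca8 and 31 in Ube2c. The other 12 held no gap in that range, with gaps from 20 (Top2a) to 179 (Kif22) bases. Among all 3842 promoters with at least 2 matches, 376 (9.79%) held such a gap. The range of distances was chosen after the positions of these members were seen, so the shares are a description and were not tested.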
